A study of Mus musculus with 4 samples.

Results

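DNA replication and mitosis genes were followed in superficial-zone cartilage of the mouse knee as a set of 43 named rows of the deposited count table, out of 24421 rows. The set was given as a list of symbols, and all 43 symbols were found. The rule for membership uses no measured value, but the set was chosen with earlier results of these data known. By what their proteins do they were placed in 19 replication genes (the helicase that opens DNA, its loaders, the sliding clamp, enzymes that make nucleotides, E2F factors and E cyclins) and 24 mitosis genes (A and B cyclins with Cdk1, kinases, motors, kinetochore proteins and the machinery that ends mitosis). The 4 libraries came from 2 C57BL/6J mice, M04 and M05. Each mouse gave cartilage of the medial femoral condyle from a sham-operated knee and from a knee whose medial meniscus had been destabilized (DMM), a surgical model of osteoarthritis, 8 weeks after surgery. This made 2 sham and 2 DMM libraries, with 1 library per knee. Both mice are wild type by the sample labels, whereas in the design text of the series M05 is a knockout of an unnamed gene, and differences between M05 and M04 are therefore given as differences between 2 animals. The free-text descriptions give the sham samples too as DMM-operated, and the titles and the treatment field were followed.

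A cell that divides first copies its DNA and then shares it out. In late G1 the E2F factors switch on the genes for replication, the loaders Cdc6 and Cdt1 place the ring of Mcm2 to Mcm7 on origins, and Cdc45 and the GINS complex turn that ring into the active helicase. Later, in G2, the MuvB complex with B-Myb and Foxm1 switches on the genes for mitosis. Chondrocytes of adult articular cartilage rarely divide, whereas precursors of red cells, granulocytes and B cells in bone marrow divide often.

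The libraries had total counts of 12712425 to 19336628, and the 12 haemoglobin rows held 25.8% to 35.3% of them. All 11 genes of a chondrocyte list, among them Col2a1, Acan and Prg4, had counts above 0 in every library, as the labelled tissue requires. CPM here means counts scaled to a common library size after TMM normalisation. The summed CPM of the chondrocyte list was 5029 for M04 sham, 5884 for M04 DMM, 1294 for M05 sham and 4404 for M05 DMM, lowest in the sham knee of M05. Erythroid genes, mostly haemoglobin, summed to 119033 to 205900 CPM, and later neutrophil genes to 36105 to 62770 CPM. Granulocyte precursor genes such as Elane and Mpo summed to 3860 to 4600 CPM, and the B-cell precursor list, most of it Cd79a, to 316 to 336 CPM. Tissue was measured in bulk, so fewer cells of a type and less RNA per cell cannot be told apart.

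The promoters show how the replication and mitosis genes differ in regulatory sequence, which the choice of the set did not use. RefSeq promoters of build GRCm38.p6, from 250 bases before to 50 bases after the start of transcription, were matched by symbol for 35 of the 43 genes, 16 for replication and 19 for mitosis. The counts themselves were made on another build, so these sequences were not placed on the data's coordinates. Each promoter was searched on both strands for an E2F site (GGCGNGAA, or TTCNCGCC on the other strand), for the cell cycle genes homology region or CHR (TTTGAA, or TTCAAA), which the DREAM and MuvB complexes bind, and for the CCAAT box (CCAAT, or ATTGG) of the factor NF-Y. Matches of different motifs were allowed to overlap. A gene was counted as holding a motif when any of its listed promoters did. The E2F site was present in 5 of 16 replication genes (31.2%) and in 0 of 19 mitosis genes. Only this exact E2F pattern was searched, so a gene without a match may hold another form of the site. The CHR was present in 3 of 16 replication genes (18.8%) and in 14 of 19 mitosis genes (73.7%). The CCAAT box was present in 10 of 16 (62.5%) and 16 of 19 (84.2%). Among 27025 genes of the RefSeq table the shares were 4.13% for the E2F site, 20.2% for the CHR and 41.1% for the CCAAT box, and among the 9883 of them that were tested here they were 7.29%, 14.3% and 42.6%.

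The stretches below lie just before the start of transcription and show promoters picked because they hold these motifs. Mcm6 and Rrm1 are from the 5 of 16 replication genes with an E2F site. Cdk1, Cdc20 and Ube2c are from the 14 of 19 mitosis genes with a CHR. They are written 5′ to 3′ on the strand of the gene, and capitals mark the motif matches. In Mcm6 (chr1:128359706-128359820, minus strand) the capitals are 2 E2F sites and 2 CCAAT boxes. In Rrm1 (chr7:102441600-102441694, plus strand) they are 1 E2F site between 2 CCAAT boxes. In Cdk1 (chr10:69352913-69352997, minus strand) they are 2 CHR and 2 CCAAT boxes, and in Cdc20 (chr4:118437344-118437403, minus strand) and Ube2c (chr2:164769834-164769928, plus strand) 1 CHR and 2 CCAAT boxes. A match is a string of letters and not a measured binding site.
Mcm6: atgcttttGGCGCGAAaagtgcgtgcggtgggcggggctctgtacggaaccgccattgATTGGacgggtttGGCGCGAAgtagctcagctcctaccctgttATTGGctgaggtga
Rrm1: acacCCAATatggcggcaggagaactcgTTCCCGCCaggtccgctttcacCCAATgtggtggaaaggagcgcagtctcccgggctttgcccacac
Cdk1: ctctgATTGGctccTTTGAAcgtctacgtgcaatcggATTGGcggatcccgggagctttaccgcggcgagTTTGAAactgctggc
Cdc20: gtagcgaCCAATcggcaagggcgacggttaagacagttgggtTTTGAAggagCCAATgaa
Ube2c: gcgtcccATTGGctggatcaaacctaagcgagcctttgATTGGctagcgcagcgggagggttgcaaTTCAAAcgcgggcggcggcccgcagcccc

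**Figure D1:**
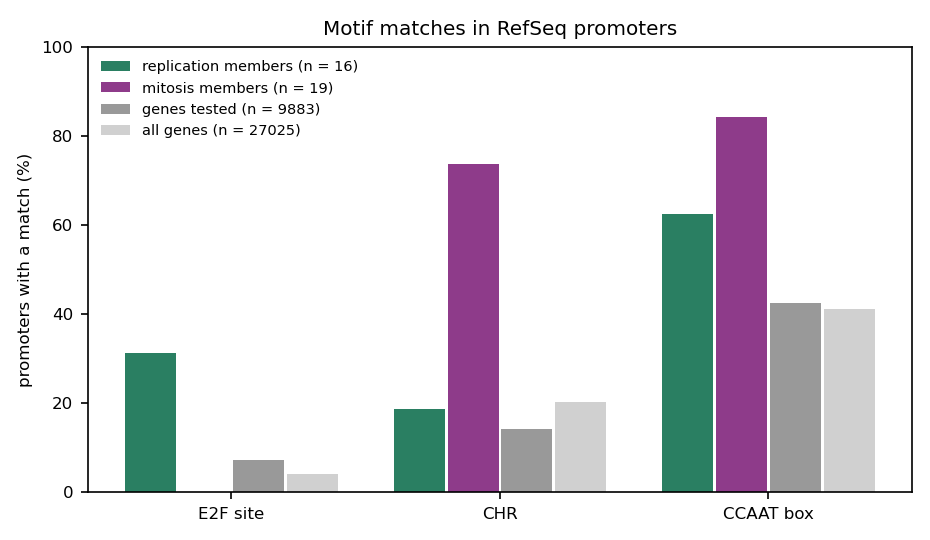
Share of genes with at least 1 match to each motif in a listed promoter (bars, percent of genes in the RefSeq promoter table). The E2F site was matched in 31.2% of replication and 0% of mitosis genes, the CHR in 18.8% and 73.7%, against 7.29% and 14.3% of the genes tested.

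All 43 genes were expressed in all 4 libraries, with 83 to 13348 counts, and all 43 passed the filter on low counts. Their joint share of all counts was 0.631% for M04 sham, 0.602% for M04 DMM, 0.460% for M05 sham and 0.519% for M05 DMM. Per transcript length, in the FPKM that the authors deposited, the highest mean over the 4 libraries belonged to Ube2c, the ubiquitin-conjugating enzyme of the anaphase-promoting complex (286 ± 29.9 FPKM, SD, n = 4), and Pcna, the sliding clamp of the DNA polymerases (278 ± 14.2 FPKM). Pcna was the higher of these in 3 of the 4 libraries, and their ranges overlapped. Birc5, also called survivin, a part of the chromosomal passenger complex, followed with 158 ± 6.31 FPKM and Mcm7 with 134 ± 11.6 FPKM. The lowest were Zwilch, a kinetochore protein of the checkpoint (3.78 ± 1.35 FPKM), and Cenpf, a large protein of kinetochore and nuclear envelope (4.19 ± 1.17 FPKM), which also overlapped. Mki67, the proliferation marker Ki-67 that coats mitotic chromosomes, had the highest CPM of the set but stood ninth per length, with 78.4 ± 16.1 FPKM.

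Genes whose proteins work together were not at equal transcript levels. Among the 6 subunits of the Mcm ring, the highest was 4.15 to 5.08 times the lowest in FPKM, depending on the library. Mcm7 was the highest and Mcm4 the lowest, with 29.0 ± 1.26 FPKM, in each of the 4 libraries. E2f2 stood 5.78 to 7.45 times above E2f1 in FPKM. Background knowledge links E2f2 to the maturation of red cell precursors in mice. Ccnb2 was 1.94 to 2.23 times Ccnb1, Ccne1 was 3.97 to 5.97 times Ccne2, and Bub1b was 3.68 to 4.40 times Bub1. Rrm1 and Rrm2, the large and small subunits of the enzyme that makes deoxynucleotides, stood at a ratio of 0.620 to 0.754. Aurka and Aurkb were nearest to each other, at a ratio of 1.08 to 1.32. The sum of the replication genes over that of the mitosis genes was 0.985 for M04 sham, 0.986 for M04 DMM, 0.969 for M05 sham and 0.939 for M05 DMM, all in FPKM. In CPM it was 0.900, 0.934, 0.974 and 0.979 in the same order of libraries. The library of M05 DMM was thus lowest in FPKM and highest in CPM, and the order depends on the unit.

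The first comparison asked whether these genes differ between DMM and sham cartilage. None of the 43 genes passed an adjusted p of 0.05 in edgeR's quasi-likelihood test (terms for mouse and for surgery, Benjamini-Hochberg adjustment), where 0.649% of 13103 genes tested did (0.633% higher and 0.0153% lower in DMM knees). Without adjustment 2 of the 43 had a p under 0.05, Zwilch and Cenpf, both lower in DMM knees, against 5.2% of all genes tested. DESeq2 and limma on FPKM also called 0 of the 43, with 0 of them under an unadjusted p of 0.05. Over all genes DESeq2 called 13 of 13103, and limma called 0 of 13093, so the 0 of limma is not particular to this set. Under an unadjusted p of 0.05 were 194 genes with DESeq2 and 474 to 530 with limma. The median log2 fold change was -0.05 over the replication genes, -0.08 over the mitosis genes and -0.01 over all genes tested. For 36 of the 43 genes the 95% interval of the fold change lay within 0.5 of 0 on the log2 scale, and the intervals reached down to -1.28 for Zwilch and up to 0.40 for Foxm1, the factor that drives mitotic genes. These intervals take most of their spread from the trend across genes, since the fit leaves 1 residual degree of freedom. Both DMM libraries lay below both sham libraries in 10 of the 43 genes (12.3% of all genes tested) and above them in 0 (13.2%).

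**Figure D2:**
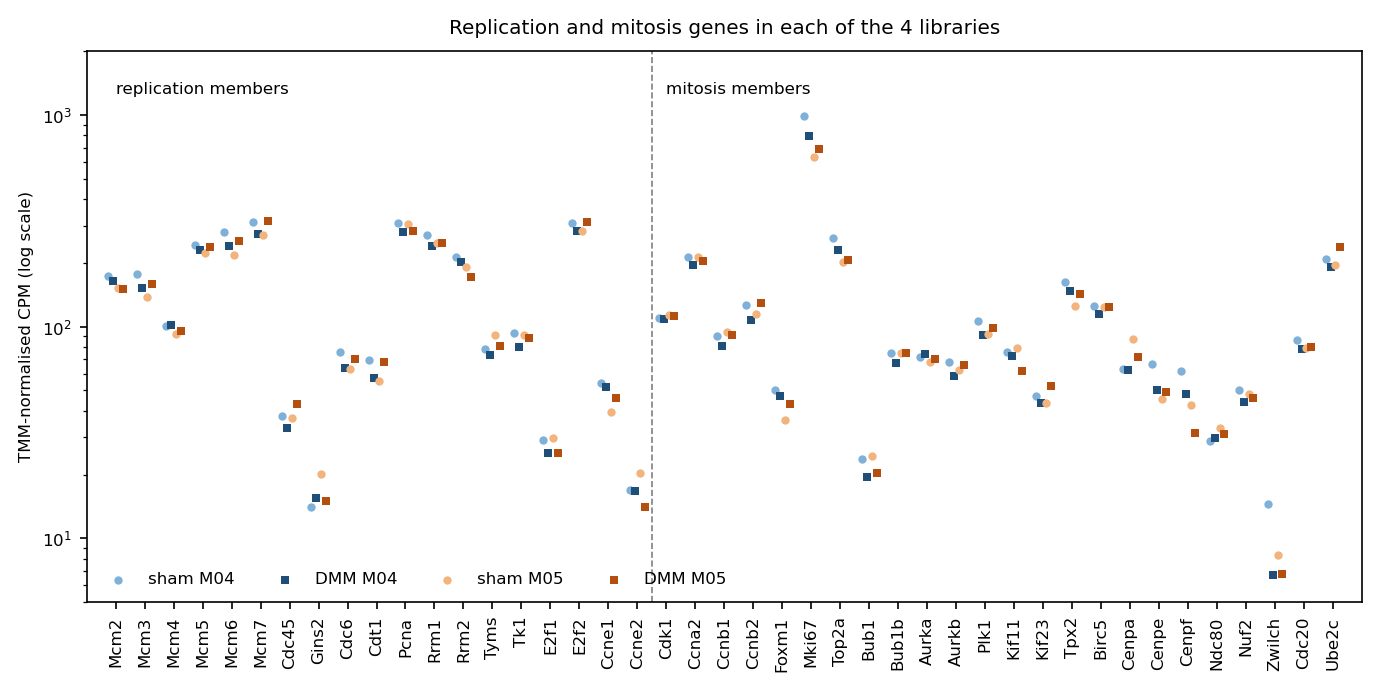
Level of each gene in the 4 libraries (points) in TMM-normalised CPM on a log axis, replication genes on the left and mitosis genes on the right. The 4 points of most genes lie close together, and Zwilch, Cenpf and Mki67 are spread most widely.

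The helicase genes had fold changes between -0.15 and 0.02. Mcm5 had 244 CPM for M04 sham, 229 for M04 DMM, 223 for M05 sham and 237 for M05 DMM, and pairs of values from here on give sham and then DMM. Mcm6 had 281 and 241 CPM in M04 and 218 and 254 CPM in M05. Mcm7 had 312 and 273 CPM in M04 and 271 and 315 CPM in M05. In each of these subunits the DMM library was the lower in M04 and the higher in M05, and the fitted fold changes of Mcm5, Mcm6 and Mcm7 were 0.00, 0.00 and 0.01 (SE 0.15 each). Mcm2, Mcm3 and Mcm4 had fold changes of -0.05, -0.01 and 0.02, and Cdc45, which joins the ring when an origin fires, of 0.02. Gins2, a subunit of the GINS complex, had 14.1 and 15.5 CPM in M04 and 20.2 and 14.9 CPM in M05, so the sham library of M05 was the highest and the groups overlapped (-0.15, SE 0.22, 95% interval -0.58 to 0.29).

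The loaders showed the same opposed order in the 2 mice. Cdc6 had 76.3 and 63.5 CPM in M04 and 63.4 and 70.2 CPM in M05. Cdt1, the loader that is destroyed once replication starts, had 69.3 and 57.0 CPM in M04 and 55.2 and 68.3 CPM in M05. Both sham groups thus spanned their DMM groups, and the fold changes were -0.06 and 0.01 (SE 0.16 each). Pcna had 308 and 280.0 CPM in M04 and 305 and 284 CPM in M05. Both DMM libraries of Pcna lay below both sham libraries, by -0.12 on the log2 scale (SE 0.15, 95% interval -0.42 to 0.18), which did not pass the test.

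The enzymes of nucleotide supply had fold changes below 0, and none passed the test. Rrm1 had 271 and 240.5 CPM in M04 and 248 and 249 CPM in M05. Rrm2, the subunit whose level rises in S phase, had 213 and 202 CPM in M04 and 191 and 172 CPM in M05. Tk1, thymidine kinase, had 93.3 and 79.7 CPM in M04 and 91.8 and 88.7 CPM in M05. Their fold changes were -0.08, -0.12 and -0.14, and that of Tyms, thymidylate synthase, was -0.13, each with an SE of 0.15 to 0.16. For Tk1 alone of these 4 the groups did not overlap.

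Of the regulators, E2f1 had 29.2 and 25.3 CPM in M04 and 29.7 and 25.3 CPM in M05, so its DMM libraries lay below its sham libraries by a like amount in both mice (-0.22, SE 0.18, 95% interval -0.58 to 0.14). E2f2 had 308 and 282 CPM in M04 and 284 and 313 CPM in M05. Ccne1, which activates Cdk2 for entry into S phase, had 54.2 and 52.0 CPM in M04 and 39.5 and 45.8 CPM in M05. E2f2 and Ccne1 had fold changes of 0.00 and 0.07, with overlapping groups. Ccne2 had the lowest fold change of the replication genes (-0.27, SE 0.22). Its ratio was -0.01 in M04 and -0.52 in M05, without overlap of the groups, a ratio here being the log2 DMM to sham ratio within 1 mouse.

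Among genes that start and run mitosis, Cdk1, the kinase of mitotic entry, was the steadiest. It had 110.0 and 109 CPM in M04 and 114 and 112 CPM in M05. Ccna2 had 212 and 196 CPM in M04 and 212 and 205 CPM in M05, and Ccnb2 had 126 and 108 CPM in M04 and 115 and 129 CPM in M05. The groups of Ccna2 did not overlap and those of Ccnb2 did, and the fold changes of Cdk1, Ccna2, Ccnb2 and Ccnb1 were -0.02, -0.08, -0.03 and -0.10 (SE 0.15 each). Mki67 had 989 and 792 CPM in M04 and 631 and 688 CPM in M05. Top2a, the topoisomerase that untangles chromosomes, had 262 and 229.8 CPM in M04 and 202 and 207 CPM in M05. For both genes the 2 libraries of M04 were above the 2 of M05, and the fold changes for surgery were -0.10 (SE 0.16) and -0.08 (SE 0.15).

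The mitotic kinases had fold changes between -0.28 and 0.05, none passing. Plk1, which acts at centrosomes and kinetochores, had 106 and 91.5 CPM in M04 and 92.8 and 98.3 CPM in M05. Aurka, the kinase of spindle poles, had 71.6 and 74.4 CPM in M04 and 68.2 and 70.7 CPM in M05. Bub1b, a kinase-like protein of the spindle checkpoint, had 74.96 and 67.2 CPM in M04 and 75.4 and 74.97 CPM in M05. Their fold changes were -0.06, 0.05 and -0.08, and Aurka and Mcm4 were the only members whose ratio was above 0 in both mice. Bub1 stood lower in both DMM libraries, its ratio being -0.29 in M04 and -0.27 in M05 and its fold change -0.28 (SE 0.20, 95% interval -0.67 to 0.11).

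Of the spindle genes, Tpx2, which activates Aurka on microtubules, had 163 and 148 CPM in M04 and 125 and 142 CPM in M05. Birc5 had 125 and 115 CPM in M04 and 124 and 123 CPM in M05. Kif11, the motor that pushes spindle poles apart, had 76.1 and 72.6 CPM in M04 and 79.4 and 61.4 CPM in M05. The groups of Birc5 and Kif11 did not overlap, and the fold changes of Tpx2, Birc5 and Kif11 were 0.03, -0.06 and -0.22 (SE 0.15, 0.15 and 0.16). Kif23, a motor of the midbody, had 47.0 and 43.7 CPM in M04 and 43.8 and 52.4 CPM in M05, and with 0.08 (SE 0.17) it shared the highest fold change of the set with Ube2c. Ube2c had 209 and 191 CPM in M04 and 195 and 237 CPM in M05 (SE 0.15). Cdc20, the activator of the anaphase-promoting complex, had 86.8 and 78.4 CPM in M04 and 78.9 and 80.1 CPM in M05. Groups overlapped in Kif23, Ube2c and Cdc20, and the fold change of Cdc20 was -0.06.

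The kinetochore held the lowest fold changes of the set. Zwilch had 14.5 and 6.69 CPM in M04 and 8.33 and 6.82 CPM in M05, with 83 to 195.5 counts. Its fold change was -0.71 (SE 0.29, 95% interval -1.28 to -0.15, adjusted p = 0.59 in edgeR), and its ratio was -1.10 in M04 and -0.28 in M05. The sham library of M04 was the highest of the 4. Cenpf had 61.9 and 48.1 CPM in M04 and 42.5 and 31.3 CPM in M05. Its ratios of -0.36 and -0.44 were alike in the 2 mice, but the groups overlapped because M04 was above M05 throughout (-0.40, SE 0.17, 95% interval -0.73 to -0.07, adjusted p = 0.635 in edgeR). Cenpe, a kinetochore motor, had 66.7 and 49.95 CPM in M04 and 45.6 and 49.3 CPM in M05. Cenpa, the histone that marks centromeres, had 62.9 and 62.3 CPM in M04 and 87.6 and 71.8 CPM in M05. Both had a fold change of -0.15 (SE 0.16). Nuf2 had 49.999 and 44.0 CPM in M04 and 48.0 and 46.0 CPM in M05, and its partner in the Ndc80 complex, Ndc80 itself, had a fold change of -0.03 beside -0.12 for Nuf2.

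The ratios were then counted within each mouse. In M04 the DMM to sham ratio was below 0 in 39 of the 43 genes, against 49.2% of all genes tested, and the median was -0.14 over the replication and -0.15 over the mitosis genes, beside 0.01 over all genes. In M05 it was below 0 in 20 of the 43, against 51.4% of all genes, with medians of 0.04 and 0.01 beside -0.01 over all genes. The signs in the 2 mice were opposite in 23 of the 43 genes, against 52.9% of all genes. The 4 genes above 0 in M04 were Mcm4, Gins2, Aurka and Ndc80. The sham library of M04 was the highest of the 4 in 24 of the 43 genes, against 25.1% of all genes, and the DMM library of M04 was the lowest in 22 of the 43, against 22.2%. With library totals alone as scaling, a setting chosen after seeing the data, the count below 0 was 28 of 43 in M04 and 10 of 43 in M05, but there the median of all genes itself moved to 0.11 and 0.10. Set against the median of all genes, which a scaling moves together with each gene, 40 of the 43 were lower in M04 and 18 in M05 after TMM. There is 1 pair of knees per mouse, and no degree of freedom was left to test the difference between the mice's ratios.

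**Figure D3:**
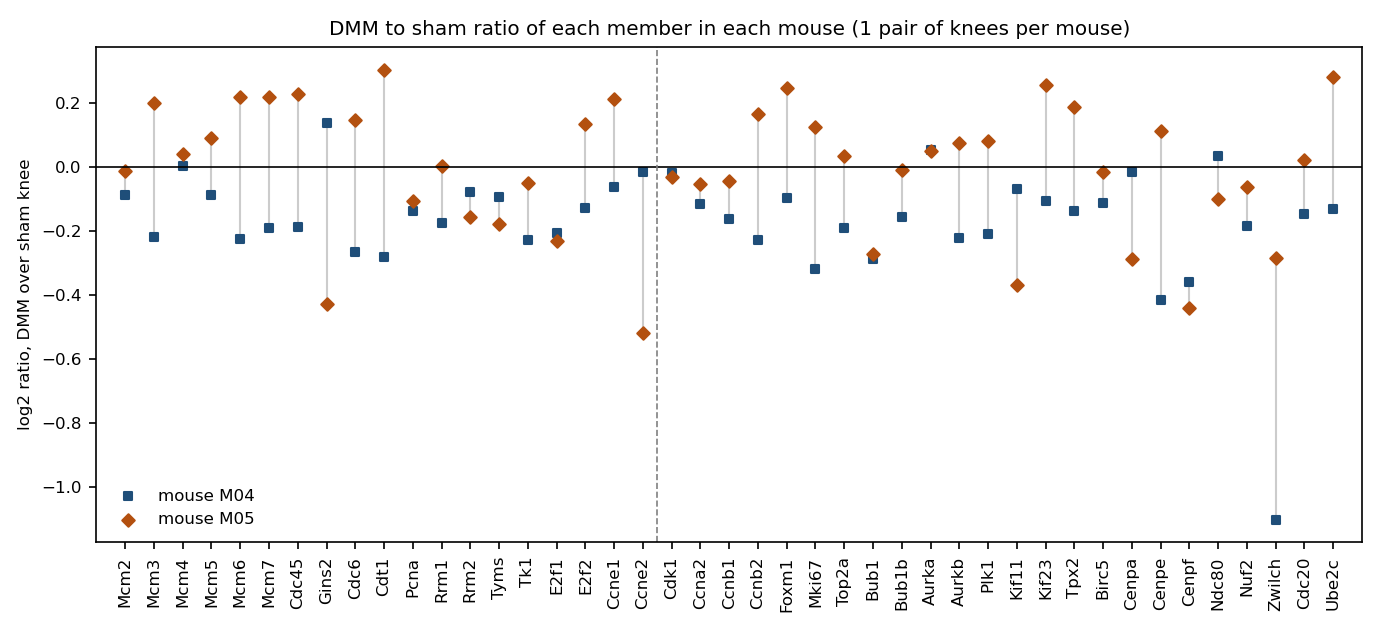
Log2 ratio of the DMM over the sham library for each gene, in M04 (squares) and M05 (diamonds), with a grey line joining both. Squares lie below 0 for 39 of the 43 genes and diamonds for 20, and Zwilch has the lowest ratio, -1.10 in M04.

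Ratios were also set out by promoter motif, as a description. The 17 genes with a CHR had median ratios of -0.13 in M04 and 0.04 in M05, and the 18 without had -0.19 and 0.00. The 5 with an E2F site had medians of -0.19 and 0.20, and the 30 without had -0.15 and -0.01. Those 5 were Mcm3, Mcm5, Mcm6, Mcm7 and Rrm1, and 4 of them encode subunits of 1 complex.

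The summed level of these genes was set beside that of the cell type marker lists. Their summed CPM was 6034 for M04 sham, 5343 for M04 DMM, 5212 for M05 sham and 5418 for M05 DMM, so the highest was 1.16 times the lowest. The same quotient was lower for the B-cell precursor list, at 1.06. It was 1.19 for the granulocyte precursor, 1.26 for the megakaryocyte, 1.35 for the osteoblast, 1.73 for the erythroid and 1.74 for the later neutrophil list. The skeletal muscle list stood at 3.46 and the chondrocyte list at 4.55. The erythroid sum was mostly haemoglobin, with 95013 and 68886 CPM in M04 and 114278 and 101800 CPM in M05 for Hba-a1 alone. Klf1 of that list had 205 and 167 CPM in M04 and 174 and 177 CPM in M05. Epor had 53.7 and 40.7 CPM in M04 and 47.2 and 49.0 CPM in M05. Tfrc spread more widely, with 167 and 168 CPM in M04 and 180 and 99.4 CPM in M05. The B-cell sum was mostly Cd79a, a gene of all B cells, at 232 to 247 CPM. The other genes of that list did not move together. Rag1, which cuts antigen receptor genes in precursors, had 12.2 and 13.2 CPM in M04 and 7.10 and 4.11 CPM in M05. Rag2 was also lower in M05, and Ebf1 overlapped. Vpreb1 had 11.6 and 14.4 CPM in M04 and 15.4 and 15.6 CPM in M05. Dntt had 26.1 and 24.5 CPM in M04 and 28.7 and 39.1 CPM in M05, and Igll1 was likewise higher in M05. In M05, the summed chondrocyte level was 1294 CPM in the sham and 4404 CPM in the DMM knee, beside 5212 and 5418 CPM for the 43 genes. For single genes, the highest library was a median of 1.20 times the lowest, and under 1.5 times in 40 of the 43. The median of this quotient was 1.47 over all genes tested and 1.33 over the 7637 whose mean CPM lay in the range of the set. Which cells gave the transcripts was not tested.

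**Figure D4:**
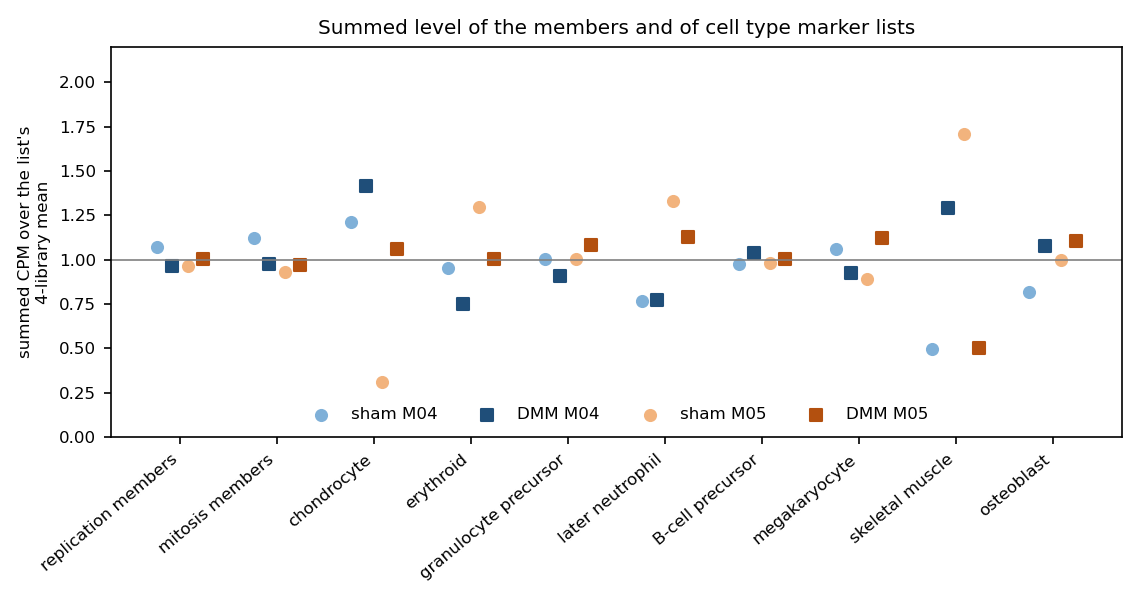
Summed CPM of the replication genes, the mitosis genes and 8 cell type marker lists in each library, each divided by the mean of its list over the 4 libraries. The replication and mitosis points stay near 1, while the chondrocyte list is lowest in the sham knee of M05 and the skeletal muscle list is higher in the DMM knee of M04 and the sham knee of M05.

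The second comparison set M05 against M04. It called 1 of the 43 genes, Cenpf, against 2.6% of all genes tested (1.64% lower and 0.962% higher in M05). Cenpf was lower in M05 by -0.58 on the log2 scale (SE 0.17, 95% interval -0.91 to -0.25, adjusted p = 0.0263 in edgeR), lower in both kinds of knee. The call was lost with DESeq2's size factors in edgeR (adjusted p = 0.0574), without haemoglobin rows in the library sizes (adjusted p = 0.0843), with limma on FPKM (adjusted p = 0.554 and 0.573), and without the surgery term (adjusted p = 0.202). Over all genes, limma and the fit without the surgery term called 0 between the mice. Within the sham knees the log2 difference of Cenpf between the mice was -0.54 and within the DMM knees -0.62. With 3 libraries both terms leave no residual degree of freedom, so fits that left out a library held the mouse alone and also took in the difference between knees. They gave -0.37 without the sham and -0.75 without the DMM library of M04, and -0.81 and -0.37 without those of M05, with edgeR adjusted p-values of 0.058 to 0.798. DESeq2 gave -0.58 with an unadjusted p of 0.00931 and no adjusted p. The next lowest were Mki67 (-0.43, SE 0.16, adjusted p = 0.153 in edgeR), Zwilch (-0.41, SE 0.29), Ccne1 (-0.32, SE 0.17), Foxm1 (-0.29, SE 0.17) and Cenpe (-0.29, SE 0.16). Cenpa (0.34, SE 0.16, adjusted p = 0.266 in edgeR) and Gins2 (0.24, SE 0.22) were highest, and none of these 7 passed. Both libraries of M05 lay below both of M04 in 11 of the 43 genes (22.8% of all genes) and above them in 6 (22.5%). Fold changes were below 0 in 21 of the 43 genes, against 50.9% of all genes. In the sham knees alone 32 of the 43 were lower in M05 (49.9% of all genes), and in the DMM knees 14 (52.2%). The median fold change was -0.03 over the replication and 0.01 over the mitosis genes, beside -0.01 over all genes.

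The longest transcripts were mostly lower in M05 among these genes, and among all genes longer transcripts were lower. Across the 43 genes the fold change of M05 against M04 and the log2 length of the longest protein-coding transcript had a Pearson correlation of -0.58, and the rank correlation was -0.39. Over 12208 genes tested with a known length the values were -0.38 and -0.44. Genes share the same 4 libraries, so these correlations are descriptions. The 10 longest of the set, at 4365 to 11130 bases, had a median fold change of -0.24, and the 10 shortest, at 1440 to 2189 bases, of 0.02. The 23 of middle length had a median of 0.01, near that of the shortest. All tested genes of these lengths, within the CPM range of the set, had medians of -0.20 (longest), -0.01 (middle) and 0.12 (shortest). The longest transcript is not always the length behind the deposited FPKM. Birc5, at 3334 bases, had 125 CPM and 162 FPKM for M04 sham, whereas Mcm5, at 3381 bases, had 244 CPM and 76.0 FPKM. Some genes may thus stand in the wrong length group, and the likeness of the middle and the shortest may depend on it. Cenpf, Mki67 and Cenpe are the 3 longest, with transcripts of 11130, 10061 and 7910 bases, and without them the Pearson correlation was -0.31 and the rank correlation -0.26. For surgery the correlation with length across the 43 genes was -0.17. The part of transcript length in the Cenpf result was not tested.

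**Figure D5:**
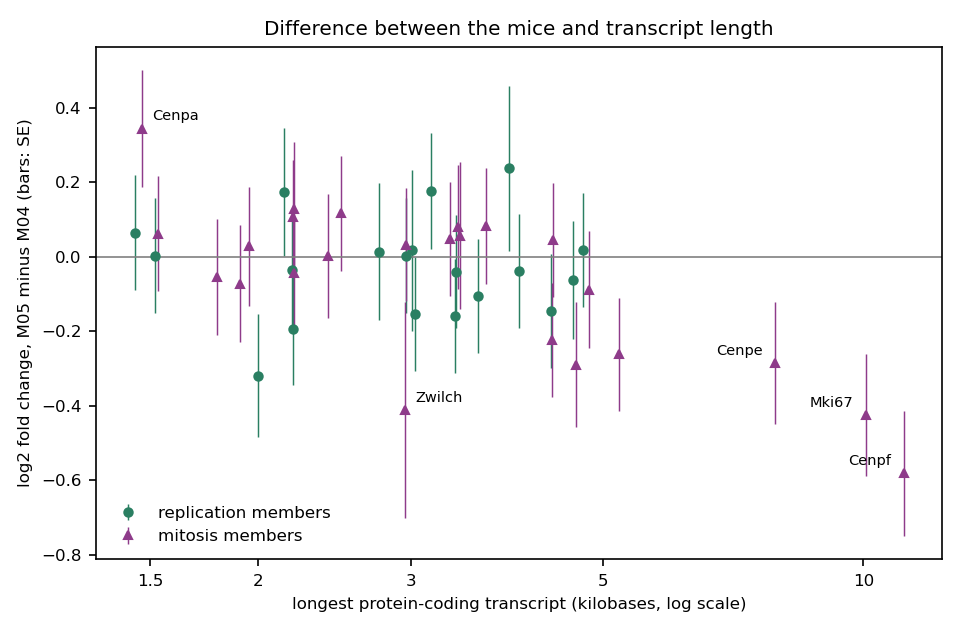
Fitted log2 fold change of M05 against M04 (bars show the SE) for each of the 43 genes by the length of its longest protein-coding transcript on a log axis. Cenpe, Mki67 and Cenpf, at 7910 to 11130 bases, lie between -0.29 and -0.58, and Cenpa, at 1466 bases, is the highest at 0.34.

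Lists of other genes of both processes were read the same way. Of 45 further replication genes, such as the origin recognition complex and the DNA polymerases, 0 were called in either comparison. Of 50 further mitosis genes, such as condensins and other kinetochore proteins, 0 were called in either. Among all genes tested 0.649% were called for surgery and 2.6% for the mouse. The tool was edgeR. Without adjustment 2 of the further replication and 1 of the further mitosis genes had a p under 0.05 for surgery, against 5.2% of all genes tested. For the mouse they were 3 and 6, or 6.67% and 12%, against 14.3% of all genes tested. Those for surgery were Orc5 (-0.60, SE 0.24), a subunit of the origin recognition complex, Pold2 (-0.35, SE 0.17), a subunit of DNA polymerase delta, and Kif14 (-0.51, SE 0.19), a motor of cytokinesis, and they were chosen after their values were seen. The median fold change for surgery was -0.09 over the 45 and -0.13 over the 50 genes, and it was below 0 in 31 of 45 and 42 of 50, against 52.1% of all genes tested and 31 of the 43. In M04 the ratio was below 0 in 29 of 45 and 39 of 50, and in M05 in 25 of 45 and 31 of 50. With a listed promoter, the E2F site was matched in 13 of 37 further replication genes (35.1%) and 5 of 44 further mitosis genes (11.4%). The CHR was matched in 5 of 37 (13.5%) and 29 of 44 (65.9%).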

How the data were processed

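Poly(A) RNA was sequenced as single-end reads, per the labels' protocols. The genome build named in the submitters' processing notes is GRCm39 (mm39). Aligner, counter and strandedness: not given in the sources used here. The authors deposited estimated counts per gene, 9.21% to 10.9% of them not whole, and an FPKM table scaled for length and depth. The count table repeats each library in a second column with equal values in all 24421 rows, so each library was counted once. None of the 43 genes shared its counts with another row.

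Rounded counts entered edgeR 4.0.16 (R 4.3.3): filterByExpr (13103 genes kept), TMM, a robust quasi-likelihood fit with mouse and surgery as terms, and Benjamini-Hochberg adjustment over all genes tested, with a threshold of 0.05. Mouse was a term since, per the labels, the sham and DMM knees pair within 1 animal. As a check of the pairing, the deviations of a mouse's libraries from their group means had a correlation of 0.13. The fit leaves 1 residual degree of freedom. For 83.0% of genes the spread came from the trend across genes, so the p-values rest mostly on that trend and not on the spread between these 2 mice. Standard errors were derived from the fold change and its F value, and intervals are 95% intervals from the same fit. Ratios per mouse are differences of log2 CPM with a prior count of 2, with no test. DESeq2 1.42.0 and limma 3.58.1, on log2(FPKM + 1) and log2(FPKM + 0.1), were alternatives, and the fit was tested on simulated data. Lengths are from GENCODE M21, matched by symbol for all 43 genes.

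The members and lists were chosen with earlier results of these data known. Values per library were printed for up to 3 genes per role by mean CPM, for genes past the threshold, and for the 2 highest and 2 lowest fold changes per comparison. Gene lists held 3 genes under an older symbol.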

Additional observations from a re-analysis of the deposited data

Results flagged for a closer look

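The DMM to sham ratio had opposite signs in the 2 mice for 18 of the genes given with their values. The difference between the mice was not tested, since each mouse has 1 pair of knees, and opposite signs occurred in 23 of the 43 genes and in 52.9% of all genes tested. The ratio in M05 minus that in M04 was 0.18 for Mcm5, 0.44 for Mcm6, 0.41 for Mcm7 and -0.57 for Gins2 among the helicase genes. It was 0.41 for Cdc6, 0.59 for Cdt1, 0.18 for Rrm1, 0.26 for E2f2 and 0.27 for Ccne1. Among mitosis genes it was 0.40 for Ccnb2, 0.44 for Mki67, 0.23 for Top2a, 0.29 for Plk1, 0.36 for Kif23, 0.33 for Tpx2, 0.53 for Cenpe, 0.17 for Cdc20 and 0.41 for Ube2c. The medians over the replication and the mitosis genes were also of opposite sign, with differences of 0.18 and 0.16.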

How the results depend on the processing

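No member was called for surgery with the reported settings or in any of the 15 alternatives. For M05 against M04 the count of lower members was 1, and 0 with DESeq2's size factors, with library sizes without haemoglobin rows, without the replicate block (the surgery term), with limma on either FPKM scale, and in all fits that leave out a library (0 to 0). Those fits held the compared term alone, so they drop a library and the other term together, and they assume that a lone library of a group varies like the others. The replicate block dropped alone already ended the call, and with it every call between the mice, 0 of 13103 genes in place of 126 higher and 215 lower. The count of lower members was also 0 with DESeq2, which gave no adjusted p for 11431 of 13103 genes, Cenpf among them. With library totals alone, chosen after seeing the data, it was 5, and the medians moved to 0.039 for the mitosis genes for surgery and to -0.28 and -0.23 for the replication and mitosis genes between the mice, where the median of all genes moved to 0.10 and -0.25. Without the sham library of M04 and the other term, the replication median for surgery was 0.05 and, between the mice, 0.08 for replication and 0.10 for mitosis. The M05 minus M04 medians of mitosis ranged from -0.09 to 0.10 over the fits that leave out a library. Without the replicate block (the mouse term) 0 members were called for surgery too, and over all genes 0 of 13103 in place of 85, with 322 at an unadjusted p under 0.05. Of the 32 genes given with their values, 9 kept the sign of their surgery fold change and 10 that of the mouse in every setting. Over all genes, 0 were called by limma in either comparison, 13 higher and 0 lower for surgery by DESeq2, and 35 and 0 with DESeq2's size factors in edgeR, in place of 83 and 2. Between the mice they were 126 and 215, beside 52 and 20 with DESeq2, 62 and 124 with its size factors, 36 and 75 without haemoglobin rows in the library sizes and 21 and 891 with library totals alone. For surgery they were 23 and 0 without haemoglobin rows and 53 and 0 with library totals alone. Leaving out a library gave 0 to 95 higher and 0 to 26 lower for surgery, and 0 to 200 and 0 to 131 between the mice.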
